A study of Mus musculus with 8 samples.

Results

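The MHC class I antigen presentation pathway was followed through 10 genes, *H2-K1*, *H2-D1*, *B2m*, *Tap1*, *Tap2*, *Tapbp*, *Psmb8*, *Psmb9*, *Psmb10* and *Nlrc5*, chosen by name from the 55414 genes in the table, where each symbol was found. Expression had been measured by RNA-seq of B16F10 cells, a mouse melanoma line, in 4 groups of 2 libraries, each after 24 h. At 21% O2 the groups were WT cells and CypD KO cells, in which *Ppif*, the gene for cyclophilin D (CypD, a mitochondrial prolyl isomerase that regulates the permeability transition pore), had been cut with CRISPR/Cas9 and puromycin-resistant clones selected. At 1% O2 they were Control cells, stably transfected with pcDNA without an insert, and CypD OE cells, stably transfected with a vector for CypD, both taken from G418-resistant clones. No group carried an empty vector at 21% O2, and neither KO nor WT cells were kept at 1% O2, so between Control and WT the oxygen level and the vector cannot be told apart. Selected clones can also differ from their parent line apart from *Ppif*, and the sources used here do not say whether the 2 libraries of a group came from separate cultures, so the p-values measure only the spread between these libraries.

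MHC class I molecules present peptides from the inside of a cell to CD8 T cells. Proteasomes cut proteins into peptides, the transporter made of TAP1 and TAP2 moves them into the endoplasmic reticulum, and tapasin (*Tapbp*) holds the empty class I molecule, a heavy chain (here H2-K or H2-D, the classical molecules of the C57BL/6 strain from which B16 derives) with β2-microglobulin (*B2m*), beside the transporter until a peptide fits. Interferons raise most of these genes and exchange the catalytic proteasome subunits for the immunoproteasome subunits (*Psmb8*, *Psmb9*, *Psmb10*), and NLRC5 is a transactivator of class I promoters. B16F10 is known as a melanoma line with little class I at its surface unless it is treated with interferon.

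The values are in TPM, the abundance of a gene's transcripts relative to all transcripts of the library, corrected for their length, so that levels can be compared between genes. In such bulk libraries, more cells that express a gene and more of its RNA per cell cannot be told apart. *Ppif* was at 50.68 and 49.99 TPM in WT, 10.44 and 12.11 in CypD KO, 44.59 and 42.25 in Control, and 50.29 and 49.28 in CypD OE. It was lower in KO than in WT (difference on the log2(TPM + 1) scale -2.07, SE 0.07, adjusted p = 3.81e-06), while the difference between the libraries labelled CypD OE and Control was 0.19 (SE 0.07, adjusted p = 0.0794). These are RNA values. For the protein, the paper reports western blots that showed CypD overexpressed in the OE clones and lacking in the KO clones. Depth was read from the steps between low values, where 1 fragment on 1000 effective bases was worth 0.082 to 0.0975 TPM. All 8 melanocyte lineage genes examined, such as *Tyrp1* and *Dct*, were present in every library, with a summed level of 12790 to 21390 TPM.

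In the KO cells, transcripts of both heavy chains, *B2m*, both transporter subunits and tapasin were higher than in WT, while other genes of peptide loading were called in either direction and the immunoproteasome subunits were not called. Of the 8 members that reached 1 TPM in at least 2 libraries and were tested with limma over all 13526 such genes, 6 were higher in KO at an adjusted p under 0.05 and 0 were lower, against 30.1% of all tested genes higher and 18.4% lower. *Tap1* and *Tap2* passed the filter on low values only because of the KO libraries, and without these 2 genes 4 members were higher. *Psmb8* and *Psmb9* stayed below the filter and were not tested. Over all 10 members, untested genes included, the median log2 difference was 1.304, beside 0.09 over all genes tested.

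*B2m*, the light chain shared by all class I molecules, was the most abundant member, with 281.11 and 303.39 TPM in WT, 954.29 and 974.74 in CypD KO, 338.79 and 318.93 in Control, and 328.53 and 329.55 in CypD OE. The KO libraries stood far above the other 6, which lay close together. The KO mean of 964.5 ± 14.5 TPM (SD, n = 2) was 3.30 times the WT mean of 292.2 ± 15.8 (log2 difference 1.72, SE 0.045, adjusted p = 1.24e-06).

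*H2-D1*, the heavy chain of H2-D, was at 22.01 and 19.47 TPM in WT, 48.12 and 46.01 in CypD KO, 22.03 and 22.54 in Control, and 13.33 and 15.13 in CypD OE. It was highest in both KO libraries and lowest in both OE libraries, and WT and Control lay between (log2 difference between Control and WT 0.10, SE 0.085, adjusted p = 0.432). Its level in KO was 2.27 times that in WT (log2 difference 1.15, SE 0.085, adjusted p = 7.27e-05), and its level in CypD OE was 0.638 times that in Control (log2 difference -0.615, SE 0.085, adjusted p = 0.00177).

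*H2-K1*, the heavy chain of H2-K, followed another order. Its values were 2.26 and 3.64 TPM in WT, 11.68 and 16.92 in CypD KO, 12.32 and 15.35 in Control, and 1.67 and 4.92 in CypD OE, so that the KO and Control libraries formed a high pair of groups and the WT and OE libraries a low pair, with no overlap between them. KO was 4.85 times WT (log2 difference 1.95, SE 0.39, adjusted p = 0.00562), and CypD OE was 0.238 times Control (log2 difference -1.89, SE 0.39, adjusted p = 0.00884). Control was 4.69 times WT (log2 difference 1.92, adjusted p = 0.0134). The Control libraries enter both of the last comparisons, with opposite signs. The OE call rests on Control replicate 2, without which the adjusted p was 0.0507, and the Control call was lost without Control replicate 2 (adjusted p = 0.0708) or without WT replicate 1 (adjusted p = 0.0733).

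**Figure D1:**
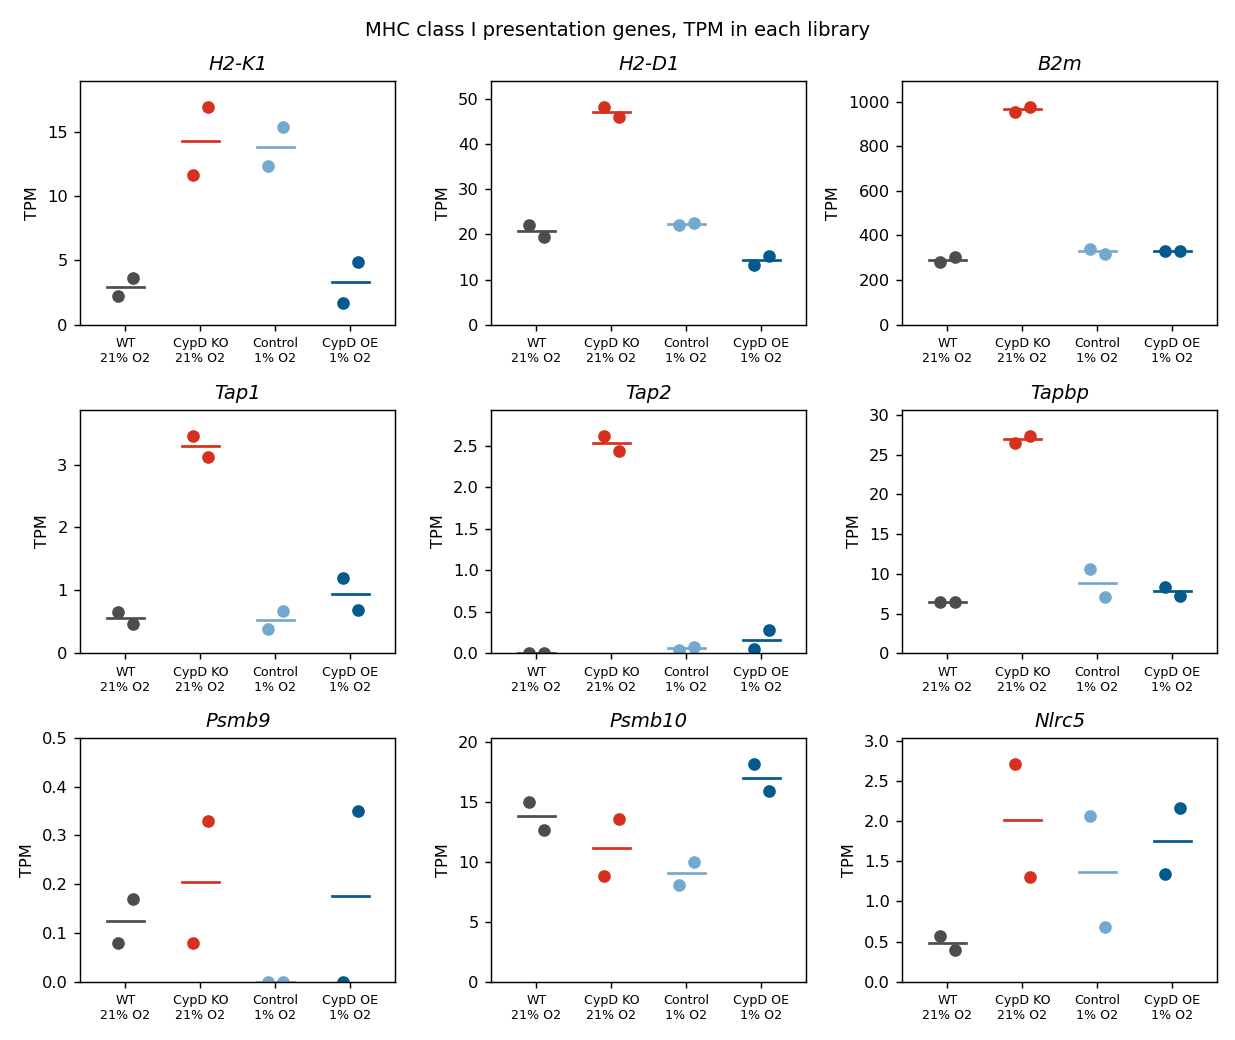
TPM (y axis, linear, from 0) of 9 members in each library; points are libraries, lines the means of the 2 libraries of a group, and *Psmb8* is left out because it was listed at 0 throughout. *B2m*, *Tap1*, *Tap2* and *Tapbp* were high in the KO libraries alone, whereas *H2-K1* was high in both KO and Control.

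The promoters of *H2-K1*, *H2-D1* and *B2m* are shown because these genes make up the class I molecule and differed in KO together, and that of *Tap1* because its start lies beside that of *Psmb9*, which stayed near 0. Each run covers 250 bases before to 50 bases after the start given by RefSeq, 5′ to 3′ on the strand of the gene, and its position is from an exact match to GRCm39: chr17:34219272-34219571 (minus strand) for *H2-K1*, chr17:35481820-35482119 (plus) for *H2-D1*, chr2:121977918-121978217 (plus) for *B2m*, and chr17:34406280-34406579 (plus) for *Tap1*. Capitals mark, on either strand, letters like those bound by NF-κB (GGGA and CC, 4 bases apart), by interferon regulatory factors (GAAA and GAAA, 2 bases apart), at the X2 box (TGACG) and at the Y box (ATTGG), the last 2 being part of the class I enhancer on which NLRC5 and the RFX and NF-Y factors assemble. Marked stretches that overlap run together.
H2-K1: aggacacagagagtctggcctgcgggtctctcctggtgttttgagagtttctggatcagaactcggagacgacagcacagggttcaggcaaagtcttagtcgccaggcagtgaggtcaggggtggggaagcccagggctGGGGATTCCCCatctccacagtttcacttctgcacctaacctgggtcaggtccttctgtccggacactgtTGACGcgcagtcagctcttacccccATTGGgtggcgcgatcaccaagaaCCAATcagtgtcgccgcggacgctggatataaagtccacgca
H2-D1: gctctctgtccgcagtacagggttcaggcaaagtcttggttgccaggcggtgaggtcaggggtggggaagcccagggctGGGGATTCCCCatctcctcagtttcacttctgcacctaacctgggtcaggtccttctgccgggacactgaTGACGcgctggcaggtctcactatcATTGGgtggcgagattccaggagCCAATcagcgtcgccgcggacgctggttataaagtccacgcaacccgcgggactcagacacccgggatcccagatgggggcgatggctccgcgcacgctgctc
B2m: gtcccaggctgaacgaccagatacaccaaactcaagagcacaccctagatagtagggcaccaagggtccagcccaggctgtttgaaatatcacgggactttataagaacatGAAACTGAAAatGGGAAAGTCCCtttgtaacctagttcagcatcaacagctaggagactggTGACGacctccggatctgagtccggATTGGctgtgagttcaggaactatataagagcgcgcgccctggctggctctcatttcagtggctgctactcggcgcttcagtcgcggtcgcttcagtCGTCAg
Tap1: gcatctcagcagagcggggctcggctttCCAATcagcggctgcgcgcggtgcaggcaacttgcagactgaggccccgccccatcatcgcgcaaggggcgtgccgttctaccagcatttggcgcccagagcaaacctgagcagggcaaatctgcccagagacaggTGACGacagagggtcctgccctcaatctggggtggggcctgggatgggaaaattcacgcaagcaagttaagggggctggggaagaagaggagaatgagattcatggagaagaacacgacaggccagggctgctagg

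The *H2-K1*, *H2-D1* and *B2m* runs share the same succession of an NF-κB-like, an X2 box and a Y box match. In *H2-K1* the NF-κB-like match began 111 bases before the start, the X2 box 41 bases and the Y box before the start 16 bases. In *H2-D1* the corresponding distances were 171, 101 and 76 bases. The distances depend on where RefSeq places each start. The stretch tataaagtccacgca, held by both runs, lies after the start in *H2-K1* and before it in *H2-D1*. *B2m* also held the interferon regulatory factor-like spacing in its exact letters, 139 bases before its start. After their NF-κB-like match, the *H2-K1* and *H2-D1* runs both hold tttcacttctgc. On the other strand these letters contain GAAA, but no further GAAA 2 bases away, so they were not counted. Looser forms of this spacing were not searched for, so its absence from a promoter does not show that no such element is present. Promoters were found in the RefSeq table for 8 members, all but *Tap2* and *Nlrc5*. Of these 8, 3 held the NF-κB-like letters (20.5% of 27025 promoters of the same length did), 5 the X2 box (21.0%), 6 the Y box (37.9%) and 1 the interferon regulatory factor-like spacing (3.5%). ACGTG, the core bound by hypoxia-inducible factors, was found in that of *Psmb10* only (19.7% of all promoters held it). Matches of so few letters are descriptions of the sequence and not binding sites. The starts of *Tap1* and *Psmb9* lie 226 bases apart on opposite strands and point away from each other, so their windows overlap over 275 bases. The X2 box and the Y box in the *Tap1* run are the same sites as those found for *Psmb9* and are counted for both genes.

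Both genes of the peptide transporter were barely expressed outside the KO cells. *Tap1* was at 0.66 and 0.46 TPM in WT, 3.46 and 3.12 in CypD KO, 0.39 and 0.67 in Control, and 1.19 and 0.68 in CypD OE. *Tap2* was listed at 0 in both WT libraries, at 2.62 and 2.44 TPM in CypD KO, at 0.04 and 0.08 in Control, and at 0.05 and 0.28 in CypD OE. Both KO libraries lay above all others for each gene. The difference between KO and WT on the log2(TPM + 1) scale, which understates changes of such low genes, was 1.46 for *Tap1* (SE 0.20, adjusted p = 0.00111) and 1.82 for *Tap2* (SE 0.19, adjusted p = 0.000289). Both genes were tested only because the KO libraries took them past the filter on low values. For *Tap1* the levels correspond to about 11.6 fragments in the lowest and 117 in the highest library, and for *Tap2* to 0 and 115. *Tap1* overlaps *Psmb9*, on the other strand, and the sources used here do not say whether fragments were counted by strand.

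*Tapbp*, the gene for tapasin, was at 6.41 and 6.5 TPM in WT, 26.50 and 27.41 in CypD KO, 10.58 and 7.08 in Control, and 8.34 and 7.25 in CypD OE. KO was 4.18 times WT (log2 difference 1.91, SE 0.17, adjusted p = 0.000142), far more than the gap between the replicates of these groups. *Tapbp* overlaps *Zbtb22*, a zinc finger gene on the same strand, which was at 8.86 and 10.21 TPM in WT and 11.06 and 11.40 in KO (log2 difference 0.22, adjusted p = 0.119).

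Among the immunoproteasome subunits, *Psmb8* was listed at 0 in all 8 libraries, where 3 fragments would have given 0.165 to 0.195 TPM. *Psmb9* reached at most 0.35 TPM, in CypD OE replicate 2, or about 4.88 fragments, and was listed at 0 in 3 libraries. *Psmb10* was the only one of the 3 with an appreciable level, at 14.97 and 12.62 TPM in WT, 8.79 and 13.57 in CypD KO, 8.10 and 10 in Control, and 18.15 and 15.89 in CypD OE. KO and WT overlapped (log2 difference -0.30, SE 0.20, adjusted p = 0.256), although without KO replicate 2 the difference passed the threshold (-0.59, adjusted p = 0.0427). OE was 1.88 times Control (log2 difference 0.85, SE 0.20, adjusted p = 0.0164), a call lost without Control replicate 1 (adjusted p = 0.0856) or OE replicate 1 (adjusted p = 0.0877).

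The constitutive subunits that the immunosubunits replace were far more abundant. *Psmb10* amounted to 5.24% and 4.48% of *Psmb7*, its constitutive counterpart, in WT, 3.87% and 6.09% in KO, 3.59% and 4.16% in Control, and 7.79% and 7.20% in CypD OE. This share does not depend on how TPM is scaled. It was 1.93 times higher in OE than in Control (log2 difference 0.95, SE 0.12, exact permutation test, two-sided, p = 0.333, the smallest that 2 libraries against 2 allow) and overlapped between KO and WT (log2 difference 0.003, SE 0.35, exact permutation p = 1). *Psmb9* was at most 0.168% of *Psmb6*, and *Psmb8* was at 0 beside *Psmb5* levels of 100.25 to 127.78 TPM.

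*Nlrc5*, which encodes the class I transactivator, was low and variable. It was at 0.57 and 0.40 TPM in WT, 2.71 and 1.31 in CypD KO, 2.06 and 0.68 in Control, and 1.34 and 2.16 in CypD OE. Both KO libraries lay above both WT libraries, but the difference did not pass the threshold (log2 difference 0.98, SE 0.35, adjusted p = 0.0575). It did so with a pseudocount of 0.1 TPM (adjusted p = 0.042) and without KO replicate 2 (adjusted p = 0.0481). Replicates within KO and within Control differed more than the means of KO, Control and OE did.

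**Figure D2:**
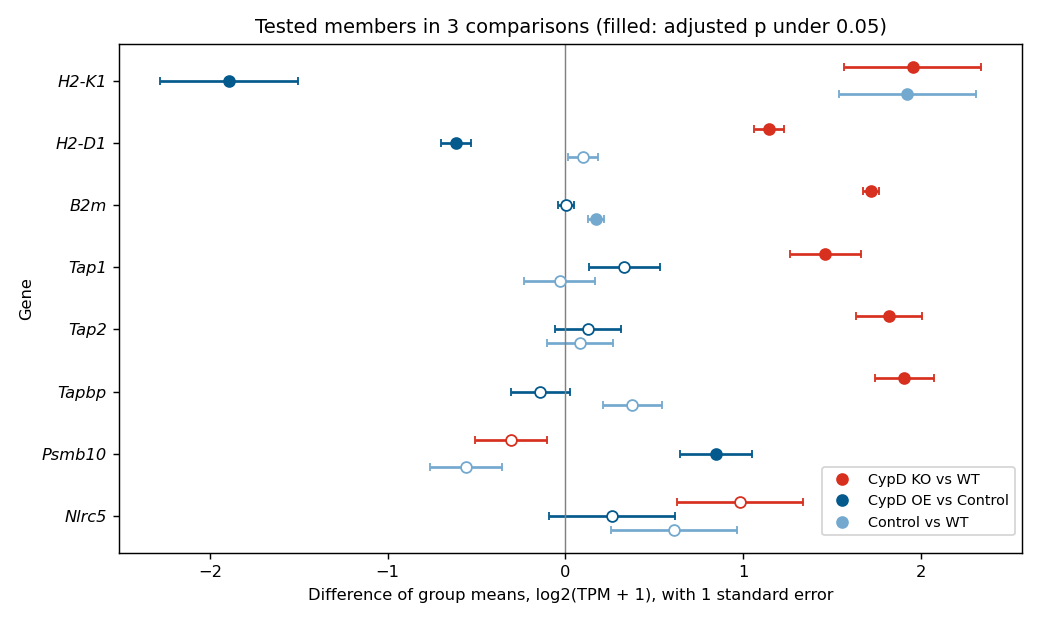
Difference of group means on the log2(TPM + 1) scale (x axis) with 1 standard error for the 8 tested members (y axis) in 3 comparisons; filled points have an adjusted p under 0.05. In KO against WT 6 members lie at 1.15 or above, while in CypD OE against Control only *H2-K1*, *H2-D1* and *Psmb10* are filled.

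At 1% O2, fewer members differed between CypD OE and Control. Only 1 was higher in OE (*Psmb10*) and 2 were lower (*H2-K1* and *H2-D1*), against 19.0% and 18.3% of all tested genes, and the median over the 10 members was 0.07 beside 0.00 over all genes tested. *B2m* differed by 0.001 (SE 0.045, adjusted p = 0.987), *Tap1* by 0.33 (SE 0.20, adjusted p = 0.242), *Tap2* by 0.13 (SE 0.19, adjusted p = 0.63), *Tapbp* by -0.14 (SE 0.17, adjusted p = 0.552) and *Nlrc5* by 0.26 (SE 0.35, adjusted p = 0.607). The heavy chains were thus lower in OE libraries whose *B2m* levels lay within the range of Control. *Tapbp* was lower in OE as well when Control replicate 2 was left out (-0.40, adjusted p = 0.0476).

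Between Control at 1% O2 and WT at 21% O2, 2 members were higher in Control (*H2-K1* and *B2m*) and 0 were lower, against 12.1% of tested genes higher and 12.1% lower. The median over the 10 members was 0.09 beside 0.01 over all genes tested. *B2m* differed by 0.17 (SE 0.045, adjusted p = 0.0357), a call that was lost under 5 other settings of the fit, with adjusted p up to 0.122, and when WT replicate 1 or Control replicate 1 was left out (adjusted p = 0.145 and 0.153). *Psmb10* was lower in both Control libraries than in both WT libraries but did not pass the threshold (-0.56, SE 0.20, adjusted p = 0.0895).

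The difference between KO and WT was then set against that between OE and Control in the same fit, a contrast added after the data had been seen. It was higher for 6 members and lower for 1, against 27.4% and 18.8% of all tested genes. Among the 6 were *Tap1* and *Tap2*, which passed the filter on low values only because of the KO libraries. *H2-K1* had the greatest value (3.85, SE 0.55, adjusted p = 0.00143), since it moved in opposite directions, and *H2-D1* did so too (1.76, SE 0.12, adjusted p = 6.04e-05). *Tapbp* (2.05), *B2m* (1.72), *Tap2* (1.69) and *Tap1* (1.13, adjusted p = 0.0161) were above 0 too, and none of these passed the threshold in OE against Control. *Psmb10* was below 0 (-1.15, SE 0.285, adjusted p = 0.0153). *Nlrc5* did not pass the threshold (0.72, SE 0.50, adjusted p = 0.283). The 2 comparisons differ both in oxygen level and in the cells compared, which cannot be told apart in this contrast. *Ppif* RNA did not pass the threshold between the libraries labelled CypD OE and Control.

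The heavy chain genes of the mouse H2 region resemble each other, and RSEM divides fragments that match several of them. Stretches of 150 bases shared with another gene made up 0% of the annotated *H2-K1* transcript and 1.8% of that of *H2-D1* (shared with *H2-Q1*, listed at 0). The sum over 27 class I heavy chain genes, of which 11 were above 0 in any library, is less affected by such division, and 0.8% of the *H2-T23* transcript is shared with *H2-T9*, which is outside the sum. It was 38.89 and 38.10 TPM in WT, 83.83 and 85.38 in KO, 53.03 and 59.09 in Control, and 31.76 and 32.83 in CypD OE. The 4 groups did not overlap, with KO highest and OE lowest. KO was 2.20 times WT (log2 difference 1.14, SE 0.02), OE was 0.576 times Control (-0.79, SE 0.08), and Control was 1.46 times WT (0.54, SE 0.08), each with an exact permutation p = 0.333, the smallest possible.

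The makeup of this sum differed as well. *H2-K1* made up 9.31% and 15.8% of *H2-K1* plus *H2-D1* in WT, 19.5% and 26.9% in KO, 35.9% and 40.5% in Control, and 11.1% and 24.5% in OE, so that it took its greatest share in Control and its share in OE overlapped that in WT and in KO. *H2-K1* plus *H2-D1* amounted to 8.63% and 7.62% of *B2m* in WT, 6.27% and 6.46% in KO, 10.14% and 11.9% in Control, and 4.57% and 6.08% in OE. The heavy chains were a smaller share of *B2m* in both KO libraries than in both WT libraries (ratio 0.783, log2 difference -0.35, SE 0.09, exact permutation p = 0.333).

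**Figure D3:**
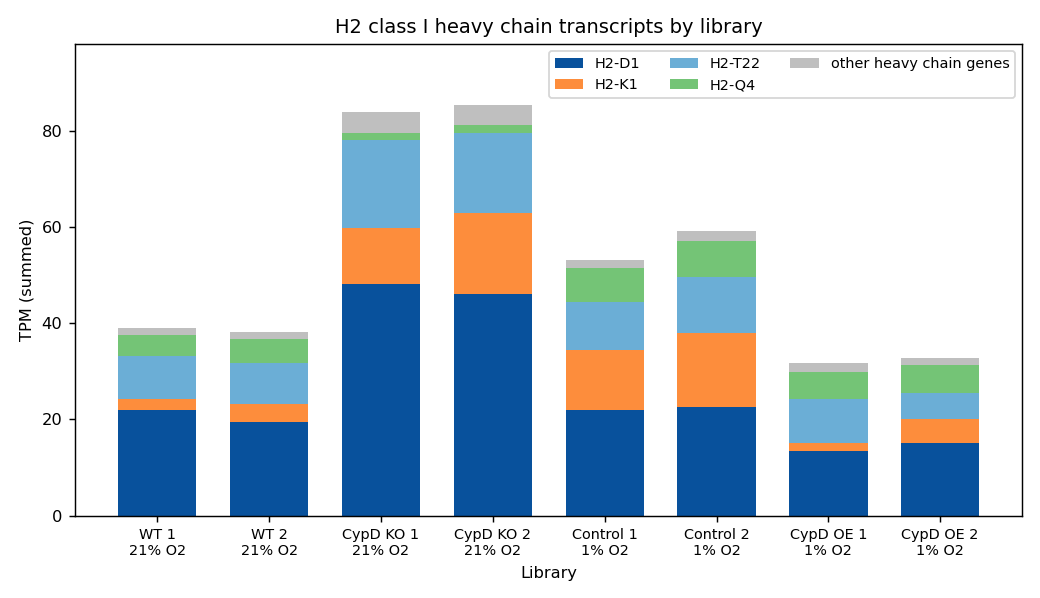
Summed TPM of 27 H2 class I heavy chain genes (y axis, from 0) in each of the 8 libraries (x axis), stacked by gene. The KO libraries reach 83.83 and 85.38 TPM, and the part taken by *H2-K1* is wide in KO and Control and narrow in WT and OE.

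Other class I and class I-like heavy chains were mostly silent. Of 36 listed, 31 were in the table, 17 were at 0 in every library and 9 were tested. In KO, 5 were higher than in WT (55.6%) and 1 was lower (11.1%), beside 30.1% and 18.4% of all genes tested. Of the 5, *H2-T23* and *Cd1d1* passed the filter only because of the KO libraries. *H2-T23*, the gene for Qa-1, a nonclassical molecule that inhibits natural killer cells through NKG2A, was at 0.11 and 0.08 TPM in WT and 2.21 and 2.04 in KO. *H2-T22*, a nonclassical molecule recognized by γδ T cells, was at 8.85 and 8.51 TPM in WT, 18.17 and 16.55 in KO, 9.96 and 11.79 in Control, and 9.26 and 5.51 in OE (KO against WT 0.92, SE 0.21, adjusted p = 0.00925). *H2-Q4* went the other way, with 4.49 and 4.99 TPM in WT, 1.51 and 1.73 in KO, 7.11 and 7.30 in Control, and 5.61 and 5.75 in OE. It was lower in KO (-1.13, SE 0.11, adjusted p = 0.00023) and higher in Control than in WT (0.52, adjusted p = 0.0166).

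*Mr1*, which presents vitamin B metabolites to mucosal-associated invariant T cells, was at 16.90 and 18.63 TPM in WT, 30.07 and 30.85 in KO, 19.69 and 19.76 in Control, and 8.57 and 7.95 in OE. Like *H2-D1*, it was higher in KO (0.75, SE 0.07, adjusted p = 0.000246) and lower in OE (-1.16, SE 0.07, adjusted p = 6.52e-05). *Procr*, the endothelial protein C receptor, was higher in KO (0.62, adjusted p = 0.00952). *Fcgrt*, the neonatal Fc receptor that also pairs with β2-microglobulin, was higher in OE (0.87, adjusted p = 0.0141) and did not pass the threshold in KO (0.32, adjusted p = 0.234). It was lower in Control than in WT (-0.887, adjusted p = 0.0206), with means of 3.52 TPM in WT, 1.44 in Control and 3.455 in OE. *Hfe*, a regulator of iron uptake, was between 3.91 and 8.03 TPM and passed neither in KO (0.08, adjusted p = 0.789) nor in OE (-0.15, adjusted p = 0.622).

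Of 8 catalytic, activator and assembly genes of the proteasome, in KO, 2 were higher and 5 lower than in WT. The higher ones were *Psme2* (1.05, SE 0.21, adjusted p = 0.00623) and *Psme1* (0.44, SE 0.07, adjusted p = 0.0025), which encode the interferon-inducible PA28 activator. *Psme2* was at 19.70 and 15.37 TPM in WT and 36.95 and 37.08 in KO. The constitutive catalytic subunits *Psmb6* (-0.40, adjusted p = 9.79e-05), *Psmb7* (-0.33, adjusted p = 0.000742) and *Psmb5* (-0.21, adjusted p = 0.0473) were lower. The activator gene *Psme3*, which encodes PA28γ (-0.18, adjusted p = 0.0071), and *Pomp*, which encodes an assembly chaperone (-0.16, adjusted p = 0.0127), were lower too, and *Psme4*, the gene for the activator PA200, did not pass the threshold (-0.12, adjusted p = 0.0949). In OE against Control, *Psme4* was higher (0.45, adjusted p = 0.000861), *Psme3* was higher by a small amount (0.18, adjusted p = 0.00977), and *Pomp* was lower (-0.27, adjusted p = 0.00221). In KO against WT, 9 of 11 other core subunits were lower (81.8%) and 0 higher (median -0.29), beside 18.4% and 30.1% of all genes. In Control against WT it was likewise 9 lower (81.8%) and 0 higher (median -0.28), beside 12.1% of all genes tested in each direction. In OE against Control 2 were higher (18.2%) and 1 lower (9.1%), beside 19.0% and 18.3% of all genes tested.

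Of 16 other peptide trimming and loading genes, 6 were higher (37.5%) and 7 lower (43.8%) in KO, beside 30.1% and 18.4% of all genes. The median of the 16 was 0.02. The largest values belonged to *Lnpep* (1.22, adjusted p = 0.000212), *Tapbpl* (1.09, adjusted p = 0.000613) and *Erap1* (1.08, adjusted p = 0.000788). *Lnpep* and *Erap1* encode aminopeptidases that trim peptides, and *Tapbpl* encodes TAPBPR, a relative of tapasin that edits the peptides bound. *Erap1* was at 6.09 and 4.86 TPM in WT, 14.19 and 11.25 in KO, 7.58 and 7.54 in Control, and 12.33 and 13.20 in OE. The chaperone genes *Calr* (-0.33, adjusted p = 0.00102) and *Canx* (-0.25, adjusted p = 0.000808), whose products fold class I heavy chains among other glycoproteins, were lower in KO, and *Pdia3*, the gene for ERp57 of the peptide loading complex, did not pass the threshold (0.01, adjusted p = 0.821). *Sec61b*, a subunit of the protein translocon, was lower in KO (-0.63, adjusted p = 0.00012), and *Bcap31*, a cargo receptor of the endoplasmic reticulum, was higher (0.44, adjusted p = 6.57e-05).

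In OE against Control, 3 of the same 16 genes were higher (18.8%) and 11 lower (68.8%), beside 19.0% and 18.3% of all genes. The median of the 16 was -0.27. *Erap1* was higher here too (0.69, adjusted p = 0.00834). The lower ones included *Pdia3*, at 792.16 and 792.01 TPM in Control and 512.83 and 517.27 in OE (-0.62, adjusted p = 1.01e-05). *Sec61g* (-0.75, adjusted p = 0.00194), the chaperone gene *Hspa5* (-0.61, adjusted p = 2.41e-05) and *Derl1* of the retrotranslocation machinery (-0.60, adjusted p = 0.00054) were lower as well. These genes serve the folding of many secreted and membrane proteins, not class I alone. In Control against WT, 11 of the 16 were higher (68.8%) and 1 lower (6.2%), with a median of 0.26. Over all genes tested the share was 12.1% in each direction. The Control libraries enter this comparison and that of OE with Control, with opposite signs.

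Of 31 genes listed as regulators of class I expression, 30 were tested. In KO 14 of these were higher (46.7%) and 5 lower (16.7%), beside 30.1% and 18.4% of all genes tested. The median over the 31 genes was 0.22. *Irf9*, an interferon regulatory factor, was at 5.12 and 3.34 TPM in WT, 9.75 and 8.80 in KO, 3.59 and 2.96 in Control, and 4.22 and 3.82 in OE. It was higher in KO (0.99, adjusted p = 0.00398), as were *Rfx5* (0.97, adjusted p = 0.00146), a subunit of the factor bound to the X box, and *Irf1* (0.79, adjusted p = 0.000429). *Susd6*, known as part of a complex that lowers class I at the cell surface, was also higher (0.98, SE 0.06, adjusted p = 2.57e-05), with 25.81 and 26.33 TPM in WT and 54.05 and 50.62 in KO.

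In OE against Control, 5 of the 30 regulators were higher (16.7%) and 7 lower (23.3%), near the 19.0% and 18.3% of all genes tested. Among them *Stat3* (-0.64, adjusted p = 0.000812), *Nfya* (-0.43, adjusted p = 0.00121) and *Rfxap* (-0.43, adjusted p = 0.0151) were lower, the last 2 being subunits of the factors bound to the Y and X boxes. *Ezh2*, the catalytic subunit of the Polycomb complex that silences class I genes in several tumor types, was higher (0.54, SE 0.04, adjusted p = 7.25e-05), at 182.36 and 191.23 TPM in Control and 274.44 and 268.27 in OE.

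Most other interferon-stimulated genes that were tested were higher in KO. Of 44 in the table, 33 were tested. In KO 26 were higher (78.8%) and 2 lower (6.1%), beside 30.1% and 18.4% of all genes tested. Of the 26, 7 passed the filter only because of the KO libraries, which leaves 19. The median over the 44 genes was 0.91. The largest differences were those of *Xaf1* (2.99), *Oas1a* (2.58), *Isg15* (2.30), *Usp18* (2.12) and *Irgm2* (2.07), each with an adjusted p of 0.00155 or less. Of these, *Oas1a* and *Irgm2* passed the filter only because of the KO libraries. *Isg15*, a ubiquitin-like modifier, was at 1.43 and 0.96 TPM in WT and 9.91 and 9.61 in KO. In OE against Control 5 of the 33 were higher (15.2%) and 1 lower (3.0%), beside 19.0% and 18.3% of all genes tested. The median over the 44 genes was -0.02 there. Of 8 interferon genes examined, 7 were at 0 in every library, and *Ifnb1* reached at most 0.31 TPM, in KO replicate 1. The class II genes, which serve antigen presentation to CD4 T cells, were at 0 in every library for 6 of 11. The summed level of the 11 was 7.27 to 8.44 TPM in KO, 3.49 to 3.59 in WT, 2.11 to 3.63 in Control and 2.65 to 3.09 in OE. It came mainly from the 2 that were tested, *H2-DMa*, which was higher in KO (1.45, adjusted p = 0.025), and *H2-DMb1* (0.43, adjusted p = 0.115), both for chains of the class II peptide exchange factor H2-DM.

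**Figure D4:**
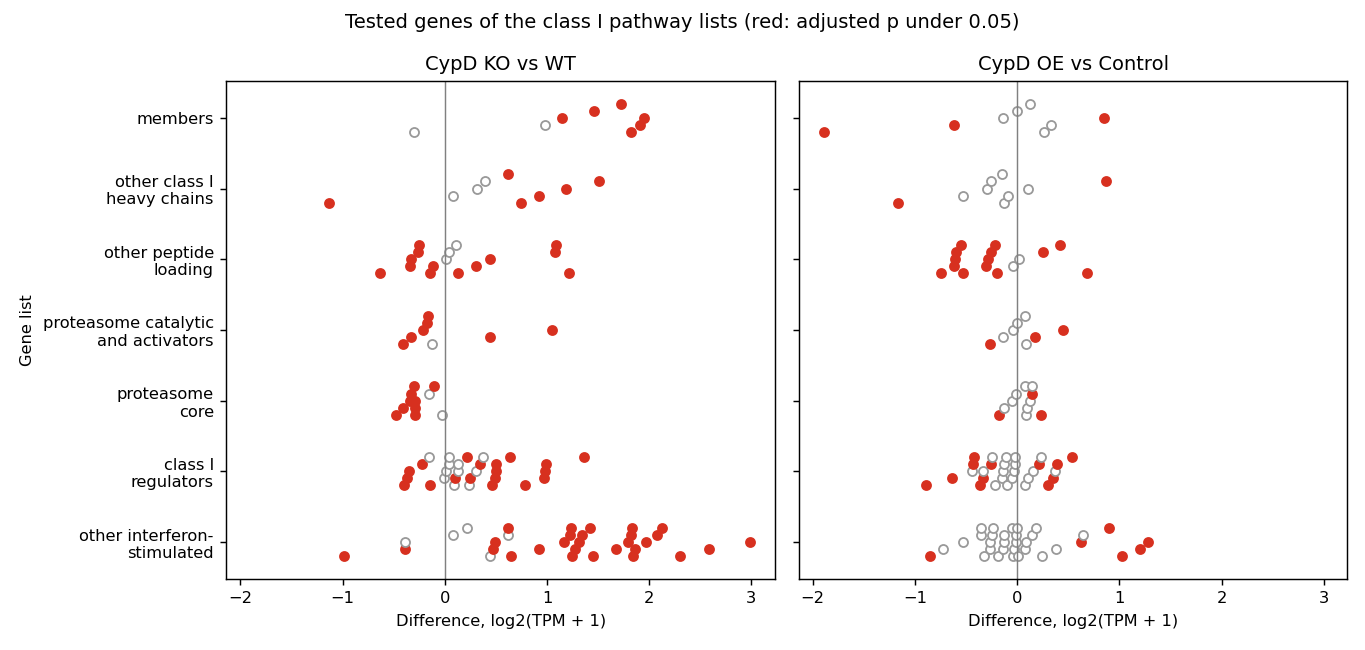
Difference on the log2(TPM + 1) scale (x axis) of every tested gene of 7 lists (y axis) in KO against WT (left) and CypD OE against Control (right); red points have an adjusted p under 0.05 and open points do not, and the height within a list has no meaning. In KO the members and the other interferon-stimulated genes lie mostly to the right of 0 and the proteasome core to its left.

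Markers of other cell types were set beside these values. Of 12 leukocyte and antigen-presenting cell genes, 6 were at 0 in every library (among them *Cd3e*, *Cd8a*, *Nkg7* and *Gzmb*), and *Ptprc*, which encodes CD45, reached at most 0.02 TPM. The summed level of the list was nonetheless 24.4 to 25.44 TPM in KO, 3.67 to 4.84 in WT, 5.11 to 5.21 in Control and 1.22 to 2.37 in OE, almost wholly from the lysosomal protein gene *Cd68* (21.85 and 23.33 TPM in KO). The 2 genes of the list that were tested were both higher in KO, *Cd68* (2.36, adjusted p = 5.5e-05) and *Lyz2* (1.03, adjusted p = 0.0122). *Lyz2* passed the filter only because of the KO libraries. The 8 fibroblast genes summed to 34.16 to 37.27 TPM in KO, 15.6 to 17.79 in WT, 19.13 to 21.15 in Control and 9.23 to 11.48 in OE with *Dcn* and *Thy1* at 0 throughout. Of the 2 that were tested, *Postn* was higher in KO than in WT (1.91, adjusted p = 9.47e-06) and *Col1a2* was lower (-1.79, adjusted p = 0.00176). The part of these genes in the class I values was not tested beyond this.

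Across the 8 libraries, *B2m*, *Tap2*, *Tapbp* and *Tap1* followed each other closely, with Pearson's r of 0.92 to 0.99 between any 2 of them on the log2(TPM + 1) scale. These 8 points are 4 groups of 2, so the values describe the contrast of KO with the rest and carry no p. *H2-D1* had an r of 0.80 with the mean of the other tested members, *H2-K1* 0.48, *Nlrc5* 0.45 and *Psmb10* -0.41. Outside the pathway, the 5 genes most like the mean profile of the tested members, among 9901 tested genes with a mean of at least 5 TPM, were *Prnp* (r = 0.998), *Dbi* (0.997), *Cpe* (0.996), *Timp2* (0.995) and *Dtna* (0.995). *Prnp*, the prion protein gene, was at 19.19 and 17.59 TPM in WT, 53.74 and 53.83 in KO, 21.32 and 21.43 in Control, and 21.86 and 23.88 in OE. As many as 335 genes had an r over 0.95, so the profile is that of many genes that stand apart in KO.

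Of the 10 members, 7 lie on chromosome 17, 2 on chromosome 8 (*Nlrc5* and *Psmb10*) and 1 on chromosome 2 (*B2m*), in GRCm39 coordinates. *Tapbp* (chr17:34134873-34148267), *H2-K1* (chr17:34214987-34219321), *Psmb9* (chr17:34400960-34406738), *Tap1* (chr17:34405996-34416199), *Psmb8* (chr17:34416690-34420428) and *Tap2* (chr17:34422501-34435829) lie within 301 kb, and *H2-D1* (chr17:35481691-35486475) lies 1046 kb farther on. *B2m* is at chr2:121977957-121983594, *Nlrc5* at chr8:95160984-95253900 and *Psmb10* at chr8:106662362-106665077. Thus *Psmb8* and *Psmb9*, listed at or near 0 in KO, lie on either side of *Tap1* and beside *Tap2*, which were higher there.

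The other tested genes within 100 kb of a member were called in both directions at shares near the background. Of 40 such neighbors, 11 were higher (27.5%) and 8 lower (20.0%) in KO, beside 30.1% and 18.4% of all genes, and on chromosome 17 it was 6 and 5 of 24. The largest called differences in KO were those of *H2-DMa* (1.45), *Slc12a4* (1.15) and *Sord* (-1.11). In OE against Control, 9 neighbors were higher and 10 lower, led by *Col11a2* (1.20), *Herpud1* (-0.84) and *Atp6v1g2* (-0.69). In Control against WT, 3 neighbors were higher (7.5%) and 6 lower (15.0%), beside 12.1% of all genes in each direction. The largest called differences were those of *Atp6v1g2* (0.83), *Cd320* (-0.66) and *Wdr46* (-0.51).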

How the data were processed

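Libraries were grouped by the genotype given in the labels, with 2 per group, numbered in accession order. The authors depleted ribosomal RNA (KAPA RNA HyperPrep with RiboErase) and read fragments from both ends for 150 bases. Reads passed through Cutadapt 3.4, STAR 2.7.8a on the Ensembl build GRCm39, and RSEM 1.3.1. The authors deposited TPM, which sum to a fixed total in a library, so a rise of abundant genes lowers all others. Read counts were not used here.

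A gene was tested where 2 or more libraries reached 1 TPM (13526 genes). limma 3.58.1 (R 4.3.3) was fitted to log2(TPM + 1) by lmFit and by eBayes allowing the variance to follow mean expression, with 1 mean per group over all 8 libraries. Tests were two-sided, with Benjamini-Hochberg adjustment over the genes tested and a threshold of 0.05. The script was tested on simulated data. Sums and ratios were compared by exact permutation in Python 3.11.15.

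Depth was found per library as the fragment length (205 to 215 bases) and the TPM of 1 fragment that brought low values closest to whole fragments. Of these values 83.5% to 86.6% came within 0.15 of a whole fragment, where an even spread would give 30%. Limits from 3 fragments cover counting error only. Gene positions are from GENCODE M39. Promoters are RefSeq sequences for GRCm38.p6, placed on GRCm39 by exact match.

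Members and lists were chosen with earlier results of these data known. Named by rule were all members, the called genes with the 5 largest differences per list and comparison, heavy chains reaching 5 TPM in any library, the 5 genes most like the members, 3 neighbors per comparison and *Ppif*. *Psme3*, *Psme4* and *Pomp* in KO, *Calr*, *Canx*, *Pdia3* in KO, *H2-T23*, *Cd1d1*, *H2-DMb1*, *Zbtb22*, *Ifnb1* and the cell type markers were named after their values were seen. Results of some listed genes are not reported here. The alternatives were adding 0.1 TPM before the logarithm, testing all genes, testing only those reaching 5 TPM, rescaling by median-of-ratios size factors, fitting 4 libraries at a time, a replicate block, eBayes with no trend, and leaving out each library in turn.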

Additional observations from a re-analysis of the deposited data

How the results depend on the processing

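The 6 members higher in KO than in WT were called with the same sign under all alternatives in which they were tested, except that the 5 TPM filter removes *Tap1* and *Tap2*. With a pseudocount of 0.1 TPM the median over the members in KO was 1.753, against 1.304. The number of members higher in Control than in WT fell from 2 to 1 with no filter, rescaling, the fit of 4 libraries, the replicate block and eBayes without trend, each time through loss of *B2m*, and ranged from 0 to 2 when 1 library was left out. Leaving out 1 library gave 0 to 1 members lower in KO and 0 to 1 higher in OE, through *Psmb10*. Replicate numbers did not pair the libraries (correlation of deviations 0.108, -0.002 and -0.019), and the block changed no other call of a member. Values near 0 turned sign when 1 library was left out. *B2m* in OE against Control ranged from -0.042 (without Control replicate 2; -0.00079 without OE replicate 2) to 0.04488 and was -0.003856 with rescaling. *Tap2* ranged there from -0.01342 to 0.2723, *Tapbp* from -0.3997 to 0.1196 and *Nlrc5* from -0.1703 to 0.6948. *Tap1* in Control against WT ranged from -0.1635 to 0.1013 (0.0615 without WT replicate 1). *Tapbp* was called higher in Control than in WT without Control replicate 2 (0.635, adjusted p = 0.0199). For *H2-K1* plus *H2-D1* alone, the log2 difference was 1.373 in KO and -1.057 in OE, against 1.14 and -0.79 for all heavy chains. The cause of these changes was not tested, and left-out fits assume that the lone library varies like the others. Depth limits *Psmb8* and *Psmb9*, with at most 4.88 fragments in any library, and *Tap1* and *Tap2*, with few fragments outside KO.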
